A study of Homo sapiens with 6 samples.

Results

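The SLIT, ROBO and semaphorin genes form the core of the axon guidance system, in which secreted ligands steer migrating cells and growing neurites through receptors on the cell surface. SLIT proteins bind ROBO receptors, class 3 semaphorins bind neuropilins that signal together with plexins, and netrins bind receptors of the UNC5 and DCC families. These cues also act outside the nervous system: SLIT and ROBO signals restrain the migration of several cell types, ROBO1 and SEMA3F lie in regions of chromosome arm 3p that lung cancers often lose, and several class 3 semaphorins are known to hold back vessel growth. Of 10 genes named for this account (SLIT2, SLIT3, ROBO1, NRP1, SEMA3C, SEMA3B, SEMA3F, PLXNB1, NTN4 and UNC5B), 7 had a probe set that the platform's probe table pairs with that gene alone, 1 probe set each, out of 7713 genes with such a probe set on the array. SEMA3B shares its probe set with the microRNA gene MIR6872 and is therefore not counted, and NTN4 and UNC5B were not paired with a probe set in that table. All 7 measured genes were bright enough to enter the test, with PLXNB1 just inside it (mean log2 intensity 5.16, where the lower limit was 5.15). The genes were chosen by function with the intensities and log2 fold changes of these same arrays known, so their values are given as a description, and the counts of calls among them support nothing.

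The cells were A549, an established line of human lung adenocarcinoma, kept as a monolayer. On 3 arrays, cisplatin 1 to 3, the RNA came from cultures exposed for 1 hour to 50 µM of the DNA-crosslinking platinum drug cisplatin and left for a further 10 hours in medium without it. The 3 control arrays came from cultures given 1 hour in growth medium without cisplatin and the same 10 hours afterwards. Per the series description the samples come from 3 independent experiments, so the spread between arrays includes that between experiments, and all cultures share one cell line.

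Median intensities per array lay between 59.3 and 67.2 after cisplatin and between 57.2 and 59.4 in control cells. The number of arrays limits the precision. RNA integrity was gauged by the 3′ over the 5′ signal of ACTB, which was 2.67 to 3.67 after cisplatin and 2.20 to 2.98 in control cells. The first principal component, with 39.9% of the variance, set cisplatin 2 and control 1 against the other 4 arrays, so the log2 fold changes of the 7 genes, and some of the other values, are also given without them. The epithelial keratin genes KRT7, KRT8 and KRT18 were bright, with KRT18 at 5595 ± 352 after cisplatin and 5810 ± 488 in control cells (mean ± SD, n = 3 each), while the epithelial surface genes EPCAM (32.7 ± 3.35 after cisplatin, 33.3 ± 1.00 in control cells) and CDH1 (37.2 ± 10.1 after cisplatin, 37.3 ± 10.1 in control cells) were dim. Of 28 markers of epithelial, neuronal, endothelial, stromal and blood cells, 25 had a probe set, 19 were tested and 0 passed in limma (0 at an unadjusted p under 0.05). Their summed intensities overlapped between the groups in every class, for epithelial markers 8513 to 11090 after cisplatin and 8871 to 11240 in control cells. The sums of the neuronal markers were 2145 to 2379 after cisplatin and 2282 to 2364 in control cells, and those of the endothelial markers 110.6 to 164 after cisplatin and 101.6 to 132 in control cells. Stromal and muscle markers summed to 246 to 293 after cisplatin and 245 to 275 in control cells, and blood markers to 90.0 to 181 after cisplatin and 117 to 164 in control cells. In that stromal class 1 marker was at or below 0 on at least 1 array. The vascular markers CDH5 (9.35 ± 12.0 after cisplatin, 7.34 ± 4.53 in control cells) and VWF (14.7 ± 3.25 after cisplatin, 13.7 ± 3.32 in control cells) and the leukocyte marker PTPRC (means of 13.8 after cisplatin and 10.1 in control cells) lay below the limit for testing. TUBB3, listed as neuronal, was bright in both groups (2083 ± 135 after cisplatin and 2177 ± 59.8 in control cells). Its single probe set (202154_x_at) makes up most of the neuronal sums, which therefore say little of the other markers in that class.

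Both SLIT genes host a copy of miR-218 in the RefSeq annotation of GRCh38.p14, and ROBO1 is known in the literature as a target of that microRNA, which is why these sequences are shown. MIR218-1 lies within SLIT2 and MIR218-2 within SLIT3, with the 5p sequence at chr4:20528299-20528319 on the plus strand and at chr5:168768211-168768231 on the minus strand. The mature 5p sequences are the same at both loci, while the 3p sequences differ. Capitals mark the seed, bases 2 to 8.
miR-218-5p within SLIT2 and within SLIT3: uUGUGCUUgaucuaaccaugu
miR-218-1-3p within SLIT2: aUGGUUCCgucaagcaccaugg
miR-218-2-3p within SLIT3: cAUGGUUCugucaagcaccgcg
SLIT3 also spans MIR585 and ROBO1 spans MIR3923, while 0 microRNA hairpins of the table lie within NRP1, SEMA3C, SEMA3F or PLXNB1. The levels of mature microRNAs were not analysed here.

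SLIT3 and ROBO1, which had the largest differences among the 7 genes, and SLIT2, the paralog of SLIT3 whose values did not separate, are shown by their promoters (RefSeq, GRCh38.p14, 250 bases before to 50 after each annotated start, 5′ to 3′ on the gene's strand). Capitals mark the GC box, searched as GGGCGG and, on the other strand, CCGCCC. ROBO1 has 2 annotated starts in the table, and which of them A549 cells use was not analysed here.
SLIT3 promoter (chr5:169301090-169301389, minus): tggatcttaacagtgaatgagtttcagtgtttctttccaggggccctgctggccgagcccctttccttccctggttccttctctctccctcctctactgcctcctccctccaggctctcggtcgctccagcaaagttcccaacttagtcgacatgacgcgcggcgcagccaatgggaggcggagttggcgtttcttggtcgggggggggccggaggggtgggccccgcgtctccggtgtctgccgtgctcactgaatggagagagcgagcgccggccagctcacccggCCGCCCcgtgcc
SLIT2 promoter (chr4:20251655-20251954, plus): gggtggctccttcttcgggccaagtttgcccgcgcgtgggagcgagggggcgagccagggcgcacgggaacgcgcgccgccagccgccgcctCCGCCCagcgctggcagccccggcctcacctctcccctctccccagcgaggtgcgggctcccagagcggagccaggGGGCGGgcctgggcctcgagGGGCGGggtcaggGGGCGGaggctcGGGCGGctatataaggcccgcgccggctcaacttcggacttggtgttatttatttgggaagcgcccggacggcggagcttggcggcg
ROBO1 upstream promoter (chr3:79767949-79768248, minus): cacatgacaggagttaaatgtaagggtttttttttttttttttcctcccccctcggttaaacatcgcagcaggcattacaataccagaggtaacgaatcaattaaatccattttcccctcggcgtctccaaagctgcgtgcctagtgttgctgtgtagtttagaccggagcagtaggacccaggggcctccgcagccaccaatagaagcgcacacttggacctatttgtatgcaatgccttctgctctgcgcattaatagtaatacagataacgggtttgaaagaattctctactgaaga
ROBO1 downstream promoter (chr3:79019410-79019709, minus): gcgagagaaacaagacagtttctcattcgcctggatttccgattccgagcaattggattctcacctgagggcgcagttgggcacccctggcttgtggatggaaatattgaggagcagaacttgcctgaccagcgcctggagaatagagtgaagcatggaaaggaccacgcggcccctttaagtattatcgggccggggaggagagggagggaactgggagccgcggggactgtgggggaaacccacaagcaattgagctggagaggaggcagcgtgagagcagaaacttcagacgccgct
The SLIT3 window holds 1 GC box, the SLIT2 window 5 and each ROBO1 window 0, where 45.0% of all 35116 promoters of the table hold at least 1. CG dinucleotides number 22 in the SLIT3 window, 36 in the SLIT2 window, and 11 and 15 in the upstream and downstream ROBO1 windows, against a median of 14 over all promoters. The letters CCAAT, or ATTGG on the other strand, occur once in the SLIT3 window and in each ROBO1 window and not in the SLIT2 window, and in 34.6% of all promoters. The letters TATAAA, or TTTATA, occur in 0 of these 4 windows and in 11.5% of all promoters. The promoter table also holds entries for SEMA3C, SEMA3F and PLXNB1.

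The question put to the arrays was how transcript levels stand 10 hours after a pulse of cisplatin. Among the axon guidance genes the ligand gene SLIT3 and the receptor gene ROBO1 had lower intensities after cisplatin on all 3 arrays than on any control array. The co-receptor gene NRP1 had a lower mean with overlapping groups, SEMA3F and PLXNB1 had higher means with overlapping groups, and SEMA3C and SLIT2 had log2 fold changes of -0.07 and 0.01, cisplatin minus control. In limma with Benjamini-Hochberg adjustment over 6559 tested probe sets, 0 of the 7 genes passed the threshold of 0.05, where 0.29% of all tested probe sets did. At an unadjusted p under 0.05 there were 2, both lower, beside 1.63% of all tested probe sets that were lower at that limit, and 2 of 7 had groups that did not overlap, both with cisplatin below, beside 3.57% of all tested probe sets. Because the genes were chosen with these values known, nothing is read from these shares. The median log2 fold change over the 7 genes was -0.07, with 4 lower and 3 higher. Over all 5816 tested genes it was 0.04, with 2294 lower and 3522 higher. RNA was taken from whole cultures, so fewer cells with a transcript and less of it per cell cannot be told apart.

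Of the ligands, SLIT3 is a large secreted protein that signals through ROBO receptors. Its probe set (203813_s_at, gene at chr5:168661740-169301139) had intensities of 37.5, 19.6 and 31.9 on cisplatin 1 to 3, against 70.9, 85.7 and 69.3 on control 1 to 3. Every cisplatin array was low, cisplatin 2 lowest, and the groups were far apart, with 37.5 as the highest cisplatin value and 69.3 as the lowest control value. The means were 29.7 ± 9.15 after cisplatin and 75.3 ± 9.05 in control cells (SD, n = 3 each), a ratio of 0.394. On the log2 scale with the offset of 11.8 the difference was -1.09 (SE 0.20), and the offset makes it smaller than the ratio of the intensities, since the cisplatin values lie near it. Only 1 of the 5816 tested genes had a lower log2 fold change. Without cisplatin 2 and control 1 the difference was -0.94, and over leaving out each array in turn it lay between -1.23 and -0.90.

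SLIT2, the better studied paralog and a tumour suppressor candidate in lung cancer, had intensities of 24.6, 51.3 and 32.8 on cisplatin 1 to 3, against 39.4, 38.2 and 27.6 on control 1 to 3 (209897_s_at, chr4:20251905-20620561). The cisplatin arrays held both the highest and the lowest value, and the groups overlapped. The log2 fold change was 0.01 (SE 0.23), or -0.14 without cisplatin 2 and control 1. Over 16 alternative settings it lay between -0.21 and 0.19, on both sides of 0. Settings that change only the test or the filter, or average the probe sets of a gene, leave it unmoved. SLIT1, the third ligand of the family and no member of the 10, had a log2 fold change of 0.31 (SE 0.18, adjusted p = 0.999 in limma), with 42.5, 55.3 and 42.1 after cisplatin and 28.5, 34.9 and 42.9 in control cells. The SLIT1 value was 0.10 without cisplatin 2 and control 1, 0.20 without control 1 alone and 0.42 at most when single arrays were left out. The 3 SLIT genes had log2 fold changes of -1.09, 0.01 and 0.31 for SLIT3, SLIT2 and SLIT1, and -0.94, -0.14 and 0.10 without cisplatin 2 and control 1, and the difference between the genes was not tested.

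ROBO1 encodes a transmembrane receptor for SLIT ligands. Its probe set (213194_at, chr3:78597239-79767998) had intensities of 82.3, 71.7 and 84.2 on cisplatin 1 to 3, against 89.4, 148.6 and 129 on control 1 to 3. The groups did not overlap, but control 1 lay only a little above the highest cisplatin value, while control 2 and control 3 lay far above it. The means were 79.4 ± 6.75 after cisplatin and 122 ± 30.2 in control cells (SD, n = 3 each), a ratio of 0.648 and a log2 fold change of -0.53 (SE 0.18). Control 1 was also the array with the lowest ACTB 3′/5′ ratio, 2.20, and the part of RNA integrity in this result was not tested. Without cisplatin 2 and control 1 the log2 fold change was -0.66, and over leaving out each array in turn it lay between -0.72 and -0.39. ROBO1 stood at place 32 from the lowest of the 5816 tested genes.

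**Figure D1:**
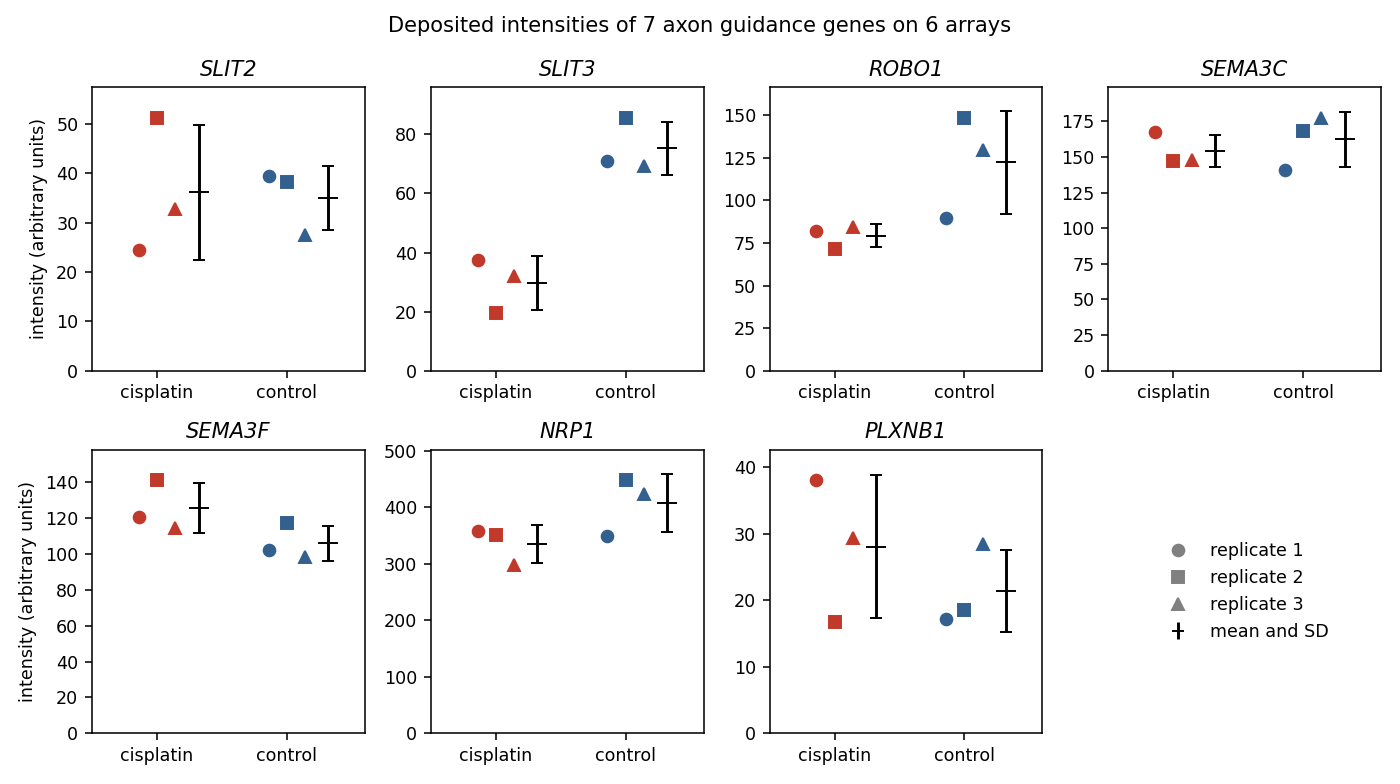
Deposited intensity (arbitrary units, linear axes from 0) of the 7 genes on the 3 cisplatin arrays (red, left) and the 3 control arrays (blue, right), with the mean and SD in black and one symbol per replicate number. SLIT3 and ROBO1 have all cisplatin values below all control values, with 37.5 on cisplatin against 69.3 on control arrays for SLIT3 and 84.2 on cisplatin against 89.4 on control arrays for ROBO1 at the nearest points, and the other 5 genes overlap.

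Of the semaphorins, SEMA3C promotes migration in several cancers and SEMA3F is a tumour suppressor candidate. SEMA3C (203788_s_at, chr7:80742538-80922389) had 167, 147 and 148 on cisplatin 1 to 3, against 141, 169 and 178 on control 1 to 3. These values interleave, and the log2 fold change was -0.07 (SE 0.14), or -0.13 without cisplatin 2 and control 1. SEMA3F (35666_at, chr3:50155058-50189075) had 121, 141 and 115 on cisplatin 1 to 3, against 102.3, 117 and 98.4 on control 1 to 3. Only cisplatin 3 lay below the highest control value, and the log2 fold change was 0.22 (SE 0.14), or 0.12 without cisplatin 2 and control 1. The probe set 203071_at, which the probe table pairs with both MIR6872 and SEMA3B, was below the limit for testing, with 18.5, 5.77 and 18.0 on cisplatin 1 to 3 and 4.65, 13.6 and 6.99 on control 1 to 3.

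NRP1, neuropilin 1, is the co-receptor for class 3 semaphorins and for vascular endothelial growth factor. It had 358, 350.7 and 298 on cisplatin 1 to 3, against 349.8, 448 and 424 on control 1 to 3 (212298_at, chr10:33177493-33334667). All cisplatin values lay below control 2 and control 3, and control 1 lay between cisplatin 2 and cisplatin 3. The log2 fold change was -0.27 (SE 0.13), and it was -0.40 without cisplatin 2 and control 1. Over the 16 alternative settings, some of which cannot move it, it lay between -0.40 and -0.19. PLXNB1, the plexin that answers SEMA4D, had 38.1, 16.8 and 29.4 on cisplatin 1 to 3, against 17.1, 18.5 and 28.5 on control 1 to 3 (215807_s_at, chr3:48403854-48430310). Its groups overlapped, with cisplatin 2 the lowest of the 6 arrays, and the log2 fold change of 0.24 was no larger than its SE of 0.25. It was 0.38 without cisplatin 2 and control 1, and over leaving out each array in turn it lay between 0.06, without cisplatin 1, and 0.47, without cisplatin 2. Its ligand gene SEMA4D, no member of the 10, had a log2 fold change of -0.03 (SE 0.16, adjusted p = 0.999 in limma), or 0.06 without cisplatin 2 and control 1.

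**Figure D2:**
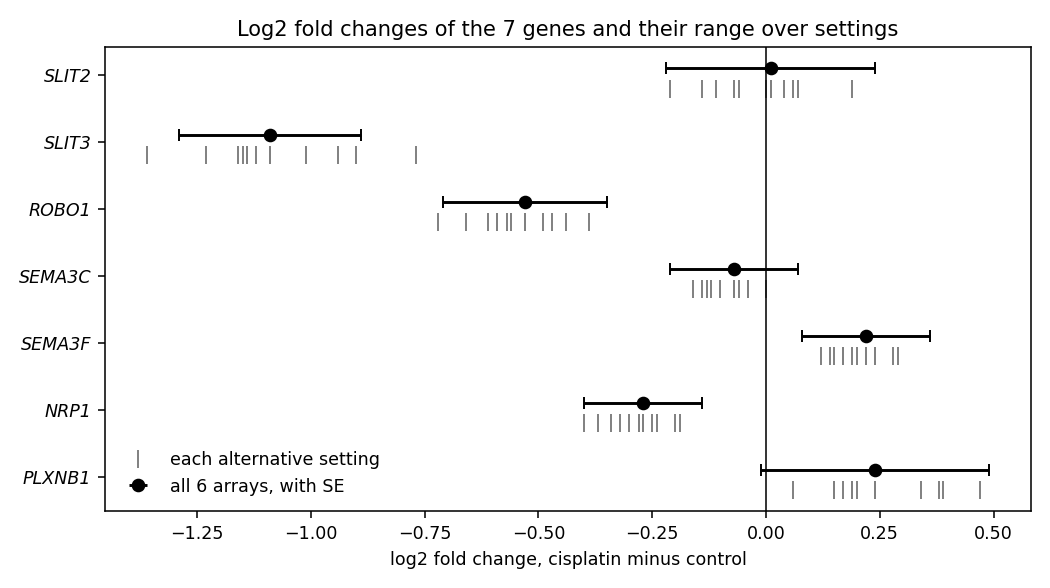
Log2 fold change, cisplatin minus control, of each gene with its SE from limma on all 6 arrays (black) and under each of 16 alternative settings (grey ticks). SLIT3 stays between -1.36 and -0.77, ROBO1 between -0.72 and -0.39 and NRP1 between -0.40 and -0.19, while the ticks of SLIT2 lie on both sides of 0.

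The 2 genes whose groups did not overlap are also the 2 with the largest spans in the annotation. ROBO1 spans 1171 kb and SLIT3 639 kb, SLIT2 spans 369 kb, SEMA3C 180 kb, NRP1 157 kb, SEMA3F 34.0 kb and PLXNB1 26.5 kb. The 4 genes with negative log2 fold changes span 157 kb or more, the 2 shortest had positive ones, and SLIT2 at 369 kb lay at 0.01. The differences of SEMA3C (-0.07, SE 0.14) and PLXNB1 (0.24, SE 0.25) were no larger than their SE. A link between span and sign was not tested in these 7 genes, which were chosen with their values known. Over all tested genes the median log2 fold change was 0.05 for the 2475 genes under 20 kb, 0.04 for both the 1537 genes of 20 to 50 kb and the 867 of 50 to 100 kb, 0.02 for the 579 of 100 to 200 kb, -0.03 for the 281 of 200 to 500 kb and -0.08 for the 77 of 500 kb or more. Of those 77 long genes 61.0% had a lower mean after cisplatin than in control cells and 19.5% had all cisplatin values below all control values, against 36.6% and 3.27% of the genes under 20 kb. With arrays centred on the median, 71.4% of the long genes and 56.2% of the short ones had a lower mean after cisplatin. SLIT3 had the second lowest log2 fold change of the 77 and ROBO1 the eleventh, so both lay in the lower part of their span class, whose quartiles were -0.35 and 0.10. Long minus short, the median of the genes of 500 kb or more less that of the genes under 20 kb was -0.13 on the log2 scale, and it lay between -0.19 and -0.07 over the 15 alternative settings in which it was computed, with -0.07 without control 3, -0.08 without cisplatin 3 and -0.16 without cisplatin 2 and control 1. The settings that change only the test, and the one without a filter, which was computed on the same genes, cannot move it. The span classes were set after results were seen, genes are not independent replicates, and these medians are a description.

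**Figure D3:**
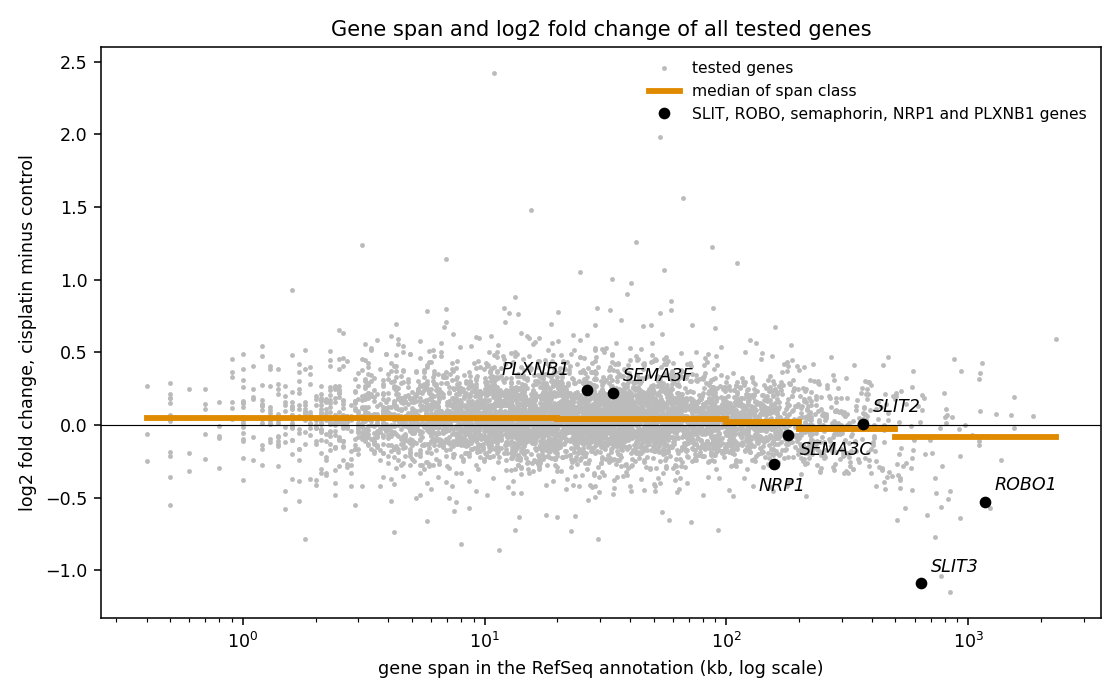
Gene span (kb, log axis) against log2 fold change, cisplatin minus control, of the tested genes with an annotated span (grey), with the median of each span class in orange and the 7 genes in black. The class medians run from 0.05 under 20 kb to -0.08 at 500 kb or more, and SLIT3 (-1.09) and ROBO1 (-0.53) lie at the lower right.

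The genes whose pattern over the 6 arrays was most like that of SLIT3 were KCNMA1, a potassium channel gene, DPYD, a pyrimidine breakdown gene, and PRKCA, a protein kinase C gene. Likeness was the root mean square difference of the log2 values, each taken relative to its gene's own mean over the 6 arrays, and it was 0.18 for KCNMA1, 0.24 for DPYD and 0.26 for PRKCA on the log2 scale. These 3 genes span 768, 843 and 508 kb. Their log2 fold changes were -1.04, -1.15 and -0.65. All 3 passed in limma (adjusted p = 0.0276, 0.0304 and 0.0343), while SLIT3 did not. DPYD reached the limit for testing only through its control values. By likeness to SLIT3, ROBO1 came at place 18 of the other 5815 genes, with a difference of 0.35, NRP1 at place 213 with 0.48 and SLIT2 at place 4361 with 0.70. With 6 arrays in 2 groups, likeness is largely set by the size of the group difference and says little of the pattern within a group.

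The rest of the pathway was listed as 99 other axon guidance genes in 6 families, of which 64 had a probe set of their own and 47 were tested. In limma 0 of the 47 passed, beside 0.292% of all tested genes. At an unadjusted p under 0.05 there were 5, all higher after cisplatin, beside 3.59% of all tested genes. In 7 of the 47 all cisplatin values lay above the control values, beside 7.58% of all tested genes, and in 2 they all lay below, beside 3.56%. Their median log2 fold change was 0.04, the same as over all tested genes. Of the 47, 29 were higher and 18 lower, beside 3522 higher and 2294 lower of all 5816 tested genes. The majority among these pathway genes turned with arrays centred on the median (21 higher, 26 lower) and with quantile normalization (23 higher, 25 lower). It also turned without control 3 (24 higher, 25 lower), and without control 1 there were 25 each way. The median log2 fold change over all tested genes moved too, to -0.03 when centred and 0.0 with quantile normalization. Those of the pathway genes were the same in both settings. Without control 3 the median was 0.05 over all tested genes and -0.01 over the pathway genes. Among SLIT and ROBO genes SLIT1 was the 1 tested. Of 4 tested neuropilins and plexins PLXNC1, the receptor of SEMA7A, had the largest difference, with 33.6, 43.8 and 33.4 on cisplatin 1 to 3 against 15.3, 12.6 and 31.0 on control 1 to 3 (log2 fold change 0.67, SE 0.24, adjusted p = 0.776, or 0.49 without cisplatin 2 and control 1). PLXNC1 reached the limit for testing only through its cisplatin values, as did the ephrin gene EFNB3. Both are among the 5 genes at an unadjusted p under 0.05 and the 7 with all cisplatin values above. Of 5 tested semaphorins SEMA6C had the largest, at 0.14 (SE 0.23, adjusted p = 0.999). It was 0.01 without cisplatin 2 and control 1 and -0.09 without cisplatin 2 alone. NEO1, the netrin receptor neogenin, was the 1 tested gene of the netrin family, with 85.7, 96.8 and 101.7 after cisplatin against 108.5, 110.6 and 114 in control cells (log2 fold change -0.21, SE 0.13, adjusted p = 0.999, or -0.24 without cisplatin 2 and control 1).

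Of 12 tested ephrins and EPH receptors 10 had a higher mean after cisplatin, beside 3522 of all 5816 tested genes. The median log2 fold change of the 12 was 0.14, and it was 0.06 with arrays centred on the median (9 of 12 higher). Leaving out each array in turn moved this median between 0.09, without cisplatin 2, and 0.28, without cisplatin 1, and 7 of 12 were higher without cisplatin 2 or without control 3. Without cisplatin 2 and control 1 it was 0.17, with 7 of 11 higher. EFNB3, the gene of the ligand ephrin B3, had the largest difference (0.47, SE 0.18, adjusted p = 0.797, or 0.40 without cisplatin 2 and control 1). EFNB3 reached the limit for testing only through its cisplatin values. Its difference was hardly larger than those of EPHB1 (0.47, SE 0.14) and, in the other direction, EFNB1 (-0.47, SE 0.30). The other gene with a lower mean was EFNA1 (-0.12, SE 0.16), and the groups of EFNB1 and EFNA1 overlapped. The 24 tested intracellular effectors had a median of 0.01, with CRMP1, a mediator of semaphorin signals, at 0.68 (SE 0.34, adjusted p = 0.997) and overlapping groups. Without cisplatin 2 the CRMP1 value was 0.33, without cisplatin 3 it was 1.06 and without cisplatin 2 and control 1 it was 0.43. The small GTPase genes RAC1 (log2 fold change -0.07, SE 0.07), CDC42 (0.03, SE 0.12) and RHOA (0.05, SE 0.08), named after their values were seen, had differences no larger than about their SE, and those of CDC42 and RHOA were -0.04 and -0.03 with arrays centred on the median.

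**Figure D4:**
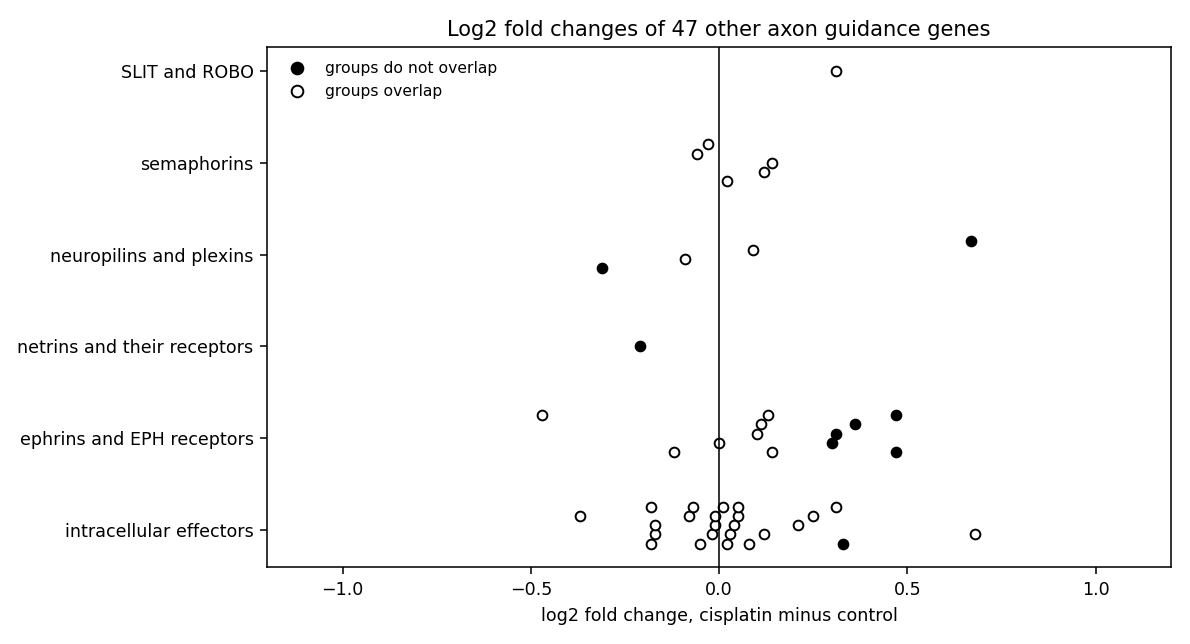
Log2 fold change, cisplatin minus control, of the 47 other tested axon guidance genes by family, with filled points where the 3 cisplatin and 3 control values do not overlap. The points lie between -0.47 and 0.68, and the filled ones are mainly ephrins and EPH receptors on the higher side (5 of the 9). EFNB3 and PLXNC1, both filled, reached the limit for testing only through their cisplatin values.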

How the data were processed

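Biotin-labelled target made by oligo-dT priming, per the labels' protocols, was hybridised to 6 short-oligonucleotide arrays, 3 per group. The authors deposited probe set intensities on a linear scale; 723 of 52758 values (1.37%) are at or below 0. How they were summarised and scaled is not given in the sources used here. Arrays carry no read depth.

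Values below 0 were set to 0, an offset of 11.8 (the 10th percentile of positive values) was added, and log2 was taken. Control probe sets (47) were left out, and the 6559 probe sets whose mean log2 reached the 25th percentile were tested in limma 3.58.1 under R 4.3.3 (lmFit, eBayes with an intensity trend, two-sided, Benjamini-Hochberg at 0.05). In 10 simulated runs of 6559 probe sets, 200 were changed and normal noise was drawn independently for each probe set. There 68.0% of 2-fold and 30.7% of 1.5-fold changes were recovered, with 5.29% of calls false. Variation that the real arrays share across probe sets was left out, so these rates need not hold for them. A gene was represented by its brightest probe set. Symbols came from the platform's probe table (7840 probe sets with 1 symbol, 388 with several, 518 with none), and 7838 matched RefSeq (GRCh38.p14) by Entrez identifier, which gave spans. Promoters and microRNAs are RefSeq's. Figures used matplotlib 3.10.9 under Python 3.11.15.

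The 10 genes and all lists were chosen with earlier results of these data known. All measured members were named; of other axon guidance genes, those past the threshold and the largest absolute log2 fold change per family; and the 3 genes nearest in pattern to the member with the largest change. Alternatives covered scaling, offset, filter, variance prior, replicate block, leaving out arrays, and averaging probe sets. Equal replicate numbers did not deviate together (correlations of -0.56, -0.31 and -0.12).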

Additional observations from a re-analysis of the deposited data

How the results depend on the processing

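Of the axon guidance genes tested in each of the 16 alternatives 0 passed in limma. Of the 7 genes, 6 were tested without control 3, without cisplatin 1 and without cisplatin 3, and 4 when the filter was set at the 50th percentile, where 23 other genes of the pathway were tested. At an unadjusted p under 0.05 there were 1 to 3 of the genes tested per alternative. In the main fit there were 2 of 7, both lower, beside 1.63% of all tested probe sets that were lower at that limit. Shares over all probe sets are not given for the alternatives. The genes were chosen with these values known, so nothing is read from the counts. The log2 fold change of SLIT3 of -1.09 was -1.36 with an offset of 1 and -0.77 with an offset 3 times as large, since its intensities after cisplatin lie near the offset. Over all probe sets 19 passed, against 5 with the replicate block, 8 with no intensity trend and 11 after centring each array on its median, and 6 to 18 when each array was left out; the cause was not tested. With the replicate block 0 of the 7 genes passed. The removal of control 1 and cisplatin 2 together was chosen after the data were seen and gave 20. Signal over background limits SLIT2, SLIT3 and PLXNB1 most, whose mean log2 intensities were 5.54, 5.89 and 5.16 beside the limit of 5.15.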

Other observations

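Among ephrins and EPH receptors, the bidirectional cell contact signals of the pathway, 5 of 12 tested genes had all 3 cisplatin values above all 3 control values, and they are named here after their values were seen. Of all tested genes 7.58% were separated in that direction. EFNB3, which is among the 5, reached the limit for testing only through its cisplatin values, so the count includes a gene admitted by its higher group. EPHB1, a receptor of B-type ephrins, had 75.5, 83.5 and 75.8 on cisplatin 1 to 3 against 53.3, 48.9 and 57.7 on control 1 to 3, a log2 fold change of 0.47 (SE 0.14, adjusted p = 0.584 in limma). It spans 465 kb, in the class of 200 to 500 kb. EPHA2, a receptor abundant in epithelial tumours, had 374, 322 and 385 after cisplatin against 280.4, 296 and 285 in control cells (log2 fold change 0.31, SE 0.12, adjusted p = 0.795). EPHB4, the receptor of ephrin B2, had 144, 164 and 171 after cisplatin against 130.0, 116 and 116 in control cells (log2 fold change 0.36, SE 0.13, adjusted p = 0.777).

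EFNB3 had 33.4, 37.9 and 31.0 after cisplatin against 20.7, 18.6 and 24.5 in control cells, and EPHA4 had 49.8, 80.4 and 46.7 after cisplatin against 41.9, 45.2 and 46.1 in control cells, where cisplatin 2 stands far above the other arrays. All 5 genes kept a higher mean in each scaling alternative, with the lowest log2 fold change at 0.23 when arrays were centred on the median, and without control 1 and cisplatin 2 the lowest was 0.06, that of EPHA4. Over leaving out each array in turn the lowest was 0.10, also that of EPHA4, without cisplatin 2. The 5 genes were picked for groups that do not overlap, so leaving out arrays cannot turn their sign. Their kept sign therefore supports nothing, and only the sizes are a description. None passed the threshold in limma. An unadjusted p under 0.05 was found for 4 of the 5, where 3.59% of all tested genes were higher at that limit. EFNB3 is among the 4. Genes picked for separated groups tend to have a small p, so nothing is read from this count.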
